A study of Rattus norvegicus with 9 samples.

Results

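The genes described here are 10 that mark hepatic stellate cells and the contractile myofibroblasts that arise from them: *Acta2*, *Tagln*, *Myl9*, *Tpm1*, *Tpm2*, *Cnn1*, *Des*, *Vim*, *Pdgfrb* and *Lrat*. They were listed by name, with earlier results of these data known, and all 10 were found among the 14378 genes that the arrays read with a probe set naming 1 gene. The arrays read each transcript through probe sets, which are groups of short probes. The 10 genes are covered by 24 of the 31042 probe sets tested, and 19 of the 24 name 1 gene alone. Each gene was read by its brightest probe set of that kind.

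Liver RNA came from 9 male Sprague–Dawley rats, with 1 array per rat and 3 rats per group, and the question was how gene expression in the liver differs with fibrosis and with rottlerin. The first group received vehicle. The CCl4 group received repeated intraperitoneal injections of carbon tetrachloride, a hepatotoxin, mixed with olive oil. The CCl4+Rot group received CCl4 as well and, starting after the first injection, intraperitoneal rottlerin, an activator of the large-conductance potassium (BK) channel. The age of the rats and the composition of the vehicle are not given in the sources used here, and no group given rottlerin alone was analysed here. The RNA was from pieces of whole frozen liver, so every value pools hepatocytes, stellate cells, vessels and all other cells. Fewer cells of a type and less RNA per cell cannot be told apart.

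Stellate cells lie in the space between hepatocytes and sinusoidal endothelium, where they store vitamin A as retinyl esters. In injured liver they lose these stores, divide and become myofibroblasts, which are built like smooth muscle cells, contract and deposit matrix. Desmin and lecithin retinol acyltransferase are used as markers of rodent stellate cells, and smooth muscle actin as the marker of myofibroblasts. Most of the contractile genes are also expressed by the smooth muscle of portal and hepatic vessels, which is another source of these transcripts in whole liver.

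In CCl4-treated livers the intermediate filament genes *Vim* and *Des*, the growth factor receptor *Pdgfrb* and the tropomyosin *Tpm1* were higher in each of the 3 rats than in any vehicle-treated rat, by 0.55 to 1.20 on average on the log2 scale. *Cnn1* was lower in each. When each array was instead centred on the median of all probe sets, *Vim* (0.45), *Tpm1* (0.19) and *Pdgfrb* (0.84) overlapped with vehicle, while *Des* (0.47) and *Cnn1* (-2.23) did not. The best known myofibroblast gene, *Acta2*, was higher by 0.78 on average, but the groups overlapped. For all 10 genes the CCl4+Rot and CCl4 rats overlapped, and the means of *Vim* and *Des* in these groups differed by 0.07 and -0.02. No gene passed the test in any comparison (0 of 10 each time), which asked for a Benjamini-Hochberg adjusted p below 0.05 over all 31042 probe sets in limma and a difference of at least 1.5-fold. The share of all probe sets passing was 0% for CCl4 against vehicle, 0.00322% for CCl4+Rot against CCl4 and 0.0258% for CCl4+Rot against vehicle.

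Precision is limited by the number of arrays. For 3 rats against 3, an exact two-sided permutation test cannot give a p below 0.1, so the signals are given rat by rat, with the 95% interval of each difference from limma. On 8 of the arrays, 15550 to 16849 probe sets were called present. On the array of CCl4 replicate 3 there were 12714, and the median signal of its absent probe sets was 5.64 against 4.06 to 4.56 on the other arrays. The 3′ minus 5′ log2 signal of the *Gapdh* control, a sign of RNA quality, was -0.14 to 0.02 in CCl4 rats and 0.04 to 0.37 in CCl4+Rot rats. For the actin control it was 1.06 to 1.335 and 1.39 to 1.45, so these groups did not overlap in either. In vehicle rats the values were -0.11 to 0.05 for *Gapdh* and 1.342 to 1.42 for actin. The CCl4 rats thus also lay below vehicle in the actin control, narrowly, but overlapped with vehicle in *Gapdh*. The part of these differences in the signals of the 10 genes was not tested, and values without CCl4 replicate 3 are given where leaving it out turned a sign or moved a difference of one of the 10 genes by over 1.5 times. All 11 measured hepatocyte markers were called present on all 9 arrays.

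Reference promoters were found for 7 of the 10 genes in the RefSeq table (assembly GRCr8), covering 250 bases before the transcription start and 50 after it. The other members are *Tagln*, *Myl9* and *Pdgfrb*. The motifs searched, on both strands, were the CArG box bound by serum response factor (exact, or with 1 base of its A/T core replaced), TATAAA, and GGGCGG, the core of the GC box. No match overlapped another. The promoters of *Acta2* (chr1:241172454-241172753 on the minus strand), *Des* (chr9:84299376-84299675 on the plus strand) and *Vim* (chr17:81577011-81577310 on the plus strand) are printed 5′ to 3′. The first is the classical smooth muscle promoter, and the other 2 belong to genes for which all rats given CCl4 lay above vehicle. Capitals mark every match to the motifs.
Acta2 promoter: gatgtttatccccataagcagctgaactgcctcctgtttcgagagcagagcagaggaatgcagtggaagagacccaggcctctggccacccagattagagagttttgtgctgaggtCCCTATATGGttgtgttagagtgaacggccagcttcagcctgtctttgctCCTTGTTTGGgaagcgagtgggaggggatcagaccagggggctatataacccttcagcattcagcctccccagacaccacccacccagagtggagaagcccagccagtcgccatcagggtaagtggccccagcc
Des promoter: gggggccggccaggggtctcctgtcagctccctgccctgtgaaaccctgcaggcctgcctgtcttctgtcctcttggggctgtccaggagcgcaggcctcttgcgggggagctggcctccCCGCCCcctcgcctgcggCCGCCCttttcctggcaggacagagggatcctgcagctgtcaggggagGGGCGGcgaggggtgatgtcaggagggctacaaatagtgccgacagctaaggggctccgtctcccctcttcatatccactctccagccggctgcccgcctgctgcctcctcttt
Vim promoter: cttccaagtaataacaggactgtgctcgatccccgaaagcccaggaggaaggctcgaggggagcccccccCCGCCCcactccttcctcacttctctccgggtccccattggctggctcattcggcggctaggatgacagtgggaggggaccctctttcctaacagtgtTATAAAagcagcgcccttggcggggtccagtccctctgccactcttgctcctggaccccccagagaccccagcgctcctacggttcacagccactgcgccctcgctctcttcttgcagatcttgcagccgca
The *Acta2* window held 2 CArG boxes with 1 replaced base, CCCTATATGG with its first base at -134 and CCTTGTTTGG at -84 from the start. *Lrat* had 1 such match, CCAAGATAGG at -209, and an exact CArG box was in none of the 7 windows. Among 33469 rat promoters of the same length, 1.64% held an exact box and 9.42% a box with or without 1 replaced base. *Vim* alone had TATAAA (first base at -82), which 14.2% of all promoters held. GGGCGG was found in 3 copies in *Des* and in *Tpm2*, 2 in *Lrat*, 1 in *Vim* and in *Tpm1*, and none in *Acta2* and *Cnn1*, while 33.1% of all promoters held at least 1. A match describes letters, not binding.

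**Figure D1:**
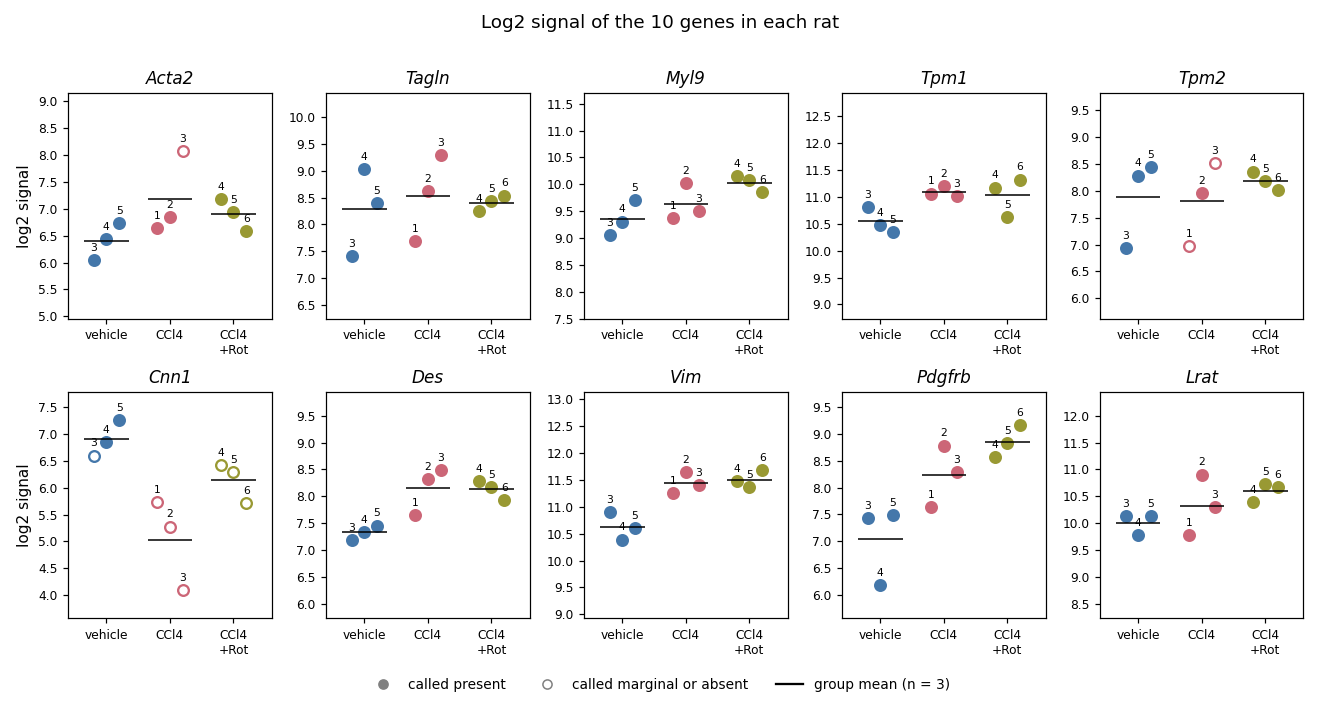
Each panel plots the deposited log2 signal (vertical axis, the same span in all panels) of 1 gene in the 3 groups (horizontal axis). A point is 1 rat with its number, filled where the probe set was called present, and the line is the group mean of 3 rats. *Vim*, *Des*, *Tpm1* and *Pdgfrb* in CCl4 rats lie above all vehicle rats, *Cnn1* lies below, and the CCl4+Rot points spread less (SD) than the CCl4 points in 9 of the 10 panels.

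*Acta2*, which encodes the smooth muscle actin of myofibroblast stress fibres (chromosome 1), was at log2 signals of 6.04, 6.43 and 6.73 in vehicle-treated rats. It was at 6.64, 6.84 and 8.07 in CCl4-treated rats and at 7.17, 6.94 and 6.58 in CCl4+Rot rats. The highest value belongs to CCl4 replicate 3, the array with few present calls, where the probe set was called marginal, while it was called present on the other 8 arrays. CCl4 minus vehicle was 0.78 (95% interval -0.15 to 1.71, adjusted p = 0.465 in limma) and 0.34 without CCl4 replicate 3. CCl4+Rot minus CCl4 was -0.28 (-1.21 to 0.65, adjusted p = 0.872), and 0.16 without that array, so the sign of this difference rested on 1 rat. CCl4+Rot minus vehicle was 0.50 (-0.43 to 1.43, adjusted p = 0.858).

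A further probe set is annotated to both *Acta2* and the cardiac actin gene *Actc1*, and is placed on chromosome 3, not on chromosome 1 as the one above. It was at 6.52, 6.30 and 7.19 in vehicle, 6.82, 7.15 and 8.21 in CCl4 and 6.78, 6.66 and 6.35 in CCl4+Rot rats. By this probe set every CCl4+Rot rat was below every CCl4 rat (-0.80, 95% interval -1.72 to 0.13, adjusted p = 0.758 in limma). The nearest rats of these groups lay 0.041 apart, and without CCl4 replicate 3, where this probe set was called marginal, the difference was -0.39. Its CCl4 minus vehicle difference was 0.72 (0.31 without that array) and its CCl4+Rot minus vehicle difference -0.08. The CCl4+Rot rats thus overlapped with CCl4 by the probe set that names *Acta2* alone, and not by the one shared with *Actc1*. How much of the shared signal comes from each gene was not tested, so it is not a reading of *Acta2* alone. The 4 further probe sets naming both actins were called absent on all 9 arrays.

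*Tagln* encodes transgelin, an actin-binding protein of smooth muscle (chromosome 8). Its signals were 7.41, 9.03 and 8.40 in vehicle, 7.69, 8.62 and 9.29 in CCl4 and 8.25, 8.44 and 8.54 in CCl4+Rot rats. The vehicle and CCl4 ranges nearly coincided, and the CCl4+Rot rats lay within both. CCl4 minus vehicle was 0.25 (95% interval -0.92 to 1.42), CCl4+Rot minus CCl4 -0.12 (-1.29 to 1.05) and CCl4+Rot minus vehicle 0.13 (-1.04 to 1.30). The first turned to -0.19 without vehicle replicate 3 and to -0.13 without CCl4 replicate 3, and without the latter the second turned to 0.26.

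*Myl9*, the regulatory light chain of smooth muscle and non-muscle myosin (chromosome 3), was at 9.05, 9.31 and 9.71 in vehicle, 9.37, 10.03 and 9.50 in CCl4 and 10.15, 10.08 and 9.85 in CCl4+Rot rats. All 3 CCl4+Rot rats were above all vehicle rats, by 0.67 on average (95% interval 0.09 to 1.25, adjusted p = 0.521 in limma), with 0.14 between the nearest rats. The CCl4 rats overlapped both of the other groups, with CCl4 minus vehicle at 0.28 (-0.30 to 0.86; 0.079 without CCl4 replicate 2) and CCl4+Rot minus CCl4 at 0.39 (-0.19 to 0.97).

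Tropomyosins are rod-shaped dimers that lie along actin filaments and set where myosin can bind. *Tpm1* (chromosome 8) was at 10.81, 10.48 and 10.34 in vehicle, 11.06, 11.21 and 11.02 in CCl4 and 11.18, 10.63 and 11.33 in CCl4+Rot rats. The CCl4 rats were all above the vehicle rats (difference 0.55, 95% interval 0.02 to 1.09, unadjusted p = 0.0448 and adjusted p = 0.393 in limma), while the CCl4+Rot rats overlapped both (-0.05 against CCl4, -0.59 to 0.48; -0.09 without CCl4 replicate 3). Of the 7 *Tpm1* probe sets, 3 were called present on all 9 arrays. For CCl4 minus vehicle these 3 gave 0.55, 0.40 and 0.39, each without overlap, and for CCl4+Rot minus CCl4 they gave -0.05, -0.09 and -0.62. The last of them was at 9.05, 9.12 and 9.14 in CCl4 rats and at 8.16, 8.71 and 8.58 in CCl4+Rot rats (95% interval -1.09 to -0.14, unadjusted p = 0.0172 and adjusted p = 0.724 in limma), so it separated the groups where the brightest did not. Which *Tpm1* isoforms each probe set reads was not analysed here.

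*Tpm2*, the beta tropomyosin abundant in smooth muscle (chromosome 5), was at 6.93, 8.28 and 8.45 in vehicle, 6.97, 7.96 and 8.51 in CCl4 and 8.36, 8.18 and 8.02 in CCl4+Rot rats. In CCl4 replicates 1 and 3 the call was marginal. The groups overlapped in all 3 comparisons, with CCl4 minus vehicle at -0.07 (95% interval -1.24 to 1.10), CCl4+Rot minus CCl4 at 0.37 (-0.80 to 1.54) and CCl4+Rot minus vehicle at 0.30 (-0.87 to 1.47). Without CCl4 replicate 3 the first was -0.42 and the second 0.72. Its other probe set was absent on every array.

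*Cnn1* encodes calponin, a marker of mature smooth muscle that binds actin and restrains myosin (chromosome 8), and it was the one gene whose CCl4 rats lay below vehicle without overlap. Signals were 6.60, 6.85 and 7.26 in vehicle, 5.73, 5.27 and 4.09 in CCl4 and 6.42, 6.29 and 5.71 in CCl4+Rot rats. It was near its detection limit: the only present calls were in vehicle replicates 4 and 5. The nearest CCl4 and vehicle rats lay 0.87 apart, and vehicle was 3.65-fold higher by the measured means (CCl4 minus vehicle -1.87, 95% interval -2.88 to -0.86, unadjusted p = 0.00294 and adjusted p = 0.231 in limma). Against CCl4+Rot, vehicle was 1.70-fold higher by the measured means, again without overlap, but with an interval that includes no difference (-0.76, -1.77 to 0.25). CCl4+Rot minus CCl4 was 1.11 (0.10 to 2.12, unadjusted p = 0.0356 and adjusted p = 0.747 in limma), but neither group was called present, so no fold is given, and without CCl4 replicate 3 the difference was 0.64 and that of CCl4 minus vehicle -1.40.

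The intermediate filament genes separated both CCl4 groups from vehicle. *Vim* (vimentin of mesenchymal cells, chromosome 17) was at 10.89, 10.39 and 10.61 in vehicle, 11.26, 11.65 and 11.40 in CCl4 and 11.47, 11.36 and 11.68 in CCl4+Rot rats. The 6 rats given CCl4, with or without rottlerin, were all above the 3 given vehicle. CCl4 minus vehicle was 0.80 or 1.75-fold (95% interval 0.34 to 1.27, unadjusted p = 0.00435 and adjusted p = 0.241 in limma), and CCl4+Rot minus vehicle 0.87 or 1.83-fold (0.41 to 1.34, adjusted p = 0.254). With robust estimation in limma and a spread set by the signal, *Vim* passed the test in both (adjusted p = 0.0356 and 0.0262). CCl4+Rot minus CCl4 was 0.07, with an interval of -0.40 to 0.54, which does not reach 1.5-fold in either direction.

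*Des*, the muscle-type filament desmin (chromosome 9), was at 7.19, 7.33 and 7.46 in vehicle, 7.66, 8.32 and 8.49 in CCl4 and 8.29, 8.17 and 7.94 in CCl4+Rot rats. As with *Vim*, the 6 rats given CCl4 lay above the 3 given vehicle. The differences were 0.83 for CCl4 minus vehicle (95% interval 0.26 to 1.40, unadjusted p = 0.0106 and adjusted p = 0.280 in limma) and 0.80 for CCl4+Rot minus vehicle (0.23 to 1.38, adjusted p = 0.401). CCl4+Rot minus CCl4 was -0.02 (-0.60 to 0.55), and 0.14 without CCl4 replicate 3.

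*Pdgfrb*, the receptor through which platelet-derived growth factor drives stellate cell division and migration (chromosome 18), had the largest positive differences from vehicle of the 10 genes with all arrays, but without vehicle replicate 4 its CCl4 minus vehicle difference was 0.77, below that of *Des* (0.83). Its signals were 7.44, 6.19 and 7.49 in vehicle, 7.63, 8.78 and 8.29 in CCl4 and 8.56, 8.82 and 9.17 in CCl4+Rot rats. The gap between the lowest CCl4 rat and the highest vehicle rat was 0.14, and that between the lowest CCl4+Rot rat and the highest vehicle rat was 1.07. CCl4 minus vehicle was 1.20 or 2.29-fold (95% interval 0.19 to 2.21, adjusted p = 0.346 in limma), and CCl4+Rot minus vehicle 1.81 or 3.51-fold (0.80 to 2.82, unadjusted p = 0.00351 and adjusted p = 0.277). The latter passed with the robust estimate in limma (adjusted p = 0.0420). CCl4+Rot minus CCl4 was 0.61 (-0.40 to 1.63, adjusted p = 0.781), with overlap. The 2 other *Pdgfrb* probe sets were absent on all arrays.

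*Lrat*, the acyltransferase that makes the retinyl esters stored by quiescent stellate cells (chromosome 2), was at 10.13, 9.77 and 10.13 in vehicle, 9.78, 10.91 and 10.30 in CCl4 and 10.39, 10.73 and 10.67 in CCl4+Rot rats. It was called present on every array. CCl4 minus vehicle was 0.32 (95% interval -0.37 to 1.00) with overlap and 0.032 without CCl4 replicate 2, and CCl4+Rot minus vehicle 0.59 (-0.10 to 1.27, adjusted p = 0.690 in limma) without overlap. CCl4+Rot minus CCl4 was 0.27 (-0.42 to 0.95).

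**Figure D2:**
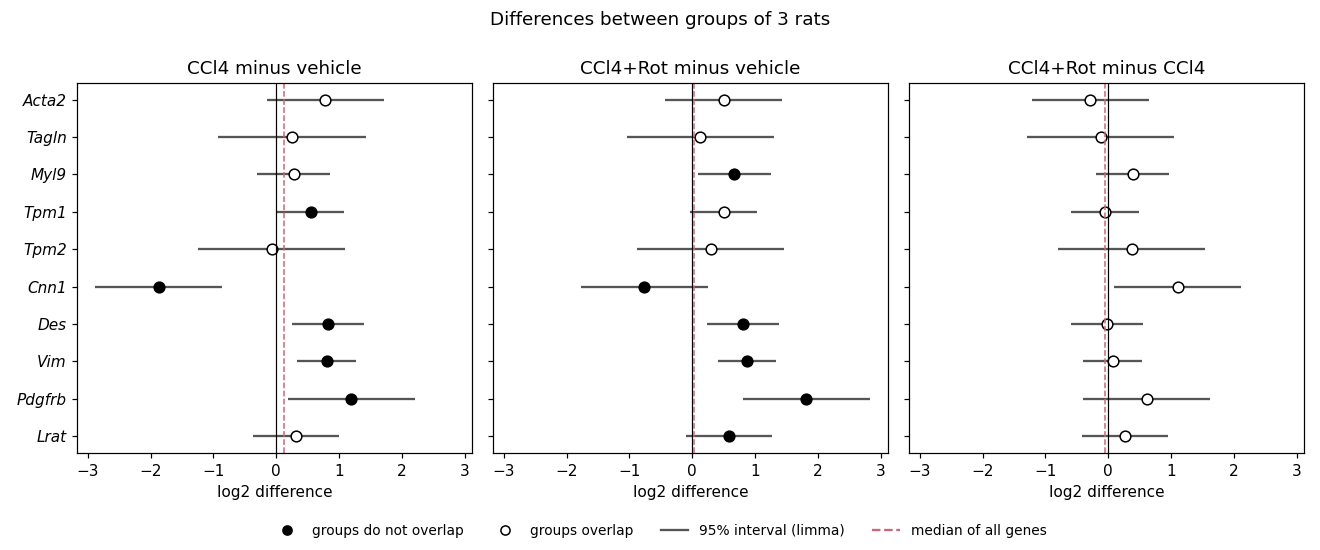
Each row is a gene and each panel a comparison, with the log2 difference between group means of 3 rats (horizontal axis), its 95% interval from limma, and a filled point where the groups did not overlap. The dashed line is the median difference of all 14378 genes, and the panels share groups, so they are not independent. For CCl4 against vehicle the intervals of *Tpm1*, *Des*, *Vim* and *Pdgfrb* lie above 0 and that of *Cnn1* below it, and no filled point stands in the panel of CCl4+Rot against CCl4.

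Over the 10 genes, 4 were higher without overlap and 1 lower in CCl4 than in vehicle rats, where 12.5% of all genes were higher and 8.54% lower in that way. For CCl4+Rot against CCl4 there was no gene without overlap in either direction (5.58% and 5.6% of all genes). For CCl4+Rot against vehicle there were 5 higher (*Myl9*, *Des*, *Vim*, *Pdgfrb*, *Lrat*) and 1 lower (*Cnn1*), against 15.2% and 9.47%. Each pair of these comparisons shares the rats of 1 group. By an unadjusted p below 0.05 in limma, 4 were higher and 1 lower for CCl4 minus vehicle (9.49% and 4.01% of all genes), 1 was higher and none lower for CCl4+Rot minus CCl4 (2.1% and 3.4%) and 4 were higher and none lower for CCl4+Rot minus vehicle (7.46% and 2.33%). The median difference of the 10 was 0.44, 0.17 and 0.54 in these comparisons, and that of all genes 0.13, -0.05 and 0.03. Without CCl4 replicate 3 the medians of the 10 were 0.34, 0.26 and 0.54, and those of all genes 0.03, 0.01 and 0.03.

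All differences are relative to the scaling of the arrays by a trimmed mean. Centring each array on the median of all probe sets moved the median of all genes to -0.23 for CCl4 minus vehicle and to 0.20 for CCl4+Rot minus CCl4. Under it the differences of *Tagln*, *Myl9* and *Lrat* between CCl4 and vehicle were below 0 (-0.11, -0.081 and -0.039), *Acta2* separated CCl4 from vehicle (0.42), and *Vim*, *Tpm1* and *Pdgfrb* no longer did. Relative to the median of all genes, the median of the 10 genes was higher by 0.31, 0.22 and 0.51 in the 3 comparisons, which centring cannot alter because it moves all genes of an array alike. After quantile normalization it was higher by 0.40, 0.12 and 0.54. The set of all genes includes 3645 called present on no array. Among genes called present on all 9 arrays, the medians with the deposited scaling were 0.55, 0.07 and 0.67 for 7 members. They were -0.01, 0.03 and 0.01 for all 7059 such genes, so for CCl4+Rot minus CCl4 the medians lay close together.

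Within a group, particular rats were high or low in many of the genes. CCl4 replicate 1 was the lowest CCl4 rat in 8 of the 10 genes, and CCl4 replicates 2 and 3 the highest in 5 and 4. Among vehicle rats, replicate 3 was lowest in 6 and replicate 5 highest in 7. The SD over 3 rats was smaller in CCl4+Rot than in CCl4 for 9 of the 10 genes, with medians of 0.18 and 0.57, but so it was for 73.8% of all genes. Against vehicle (median SD 0.33) it was smaller for 7 of the 10, and for 49.9% of all genes.

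*Tagln* and *Tpm2* were lowest in the same rats, vehicle replicate 3 and CCl4 replicate 1, where both were at -1.03 to -0.72 relative to their means over 9 rats. Some of the 9 vascular smooth muscle and pericyte markers were low in these rats and others were not: 4 were below their means in both, and *Smtn* (0.31 and 0.19) and *Mcam* (0.12 and 0.15) above in both. *Actg2*, the enteric smooth muscle actin, was at 5.57 in vehicle replicate 3 and 6.00 in CCl4 replicate 1. It was at 7.89 and 7.59 in the other vehicle rats, 6.21 and 7.94 in the other CCl4 rats and 6.18, 6.33 and 6.28 in CCl4+Rot rats. The CCl4+Rot rats were thus also low in *Actg2*, but not in *Tagln* (8.25 to 8.54) or *Tpm2* (8.02 to 8.36). *Myh11*, the smooth muscle myosin heavy chain, called present on 1 array, was at 6.83 in vehicle replicate 3 and 6.89 in CCl4 replicate 1. In the others it was at 8.65 and 8.75 (vehicle), 7.04 and 8.55 (CCl4) and 7.79, 7.93 and 7.55 (CCl4+Rot). *Lmod1*, an actin nucleator of smooth muscle, was at 1.57 in vehicle replicate 3 and 4.42 in CCl4 replicate 1. In the others it was at 5.64 and 4.89, 5.41 and 6.14, and 6.39, 5.96 and 5.43 in the same order. *Myh11* is outside the rule for names, and these 3 genes were picked from 9 after their values were seen. Their part in the *Tagln* and *Tpm2* values was not tested.

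**Figure D3:**
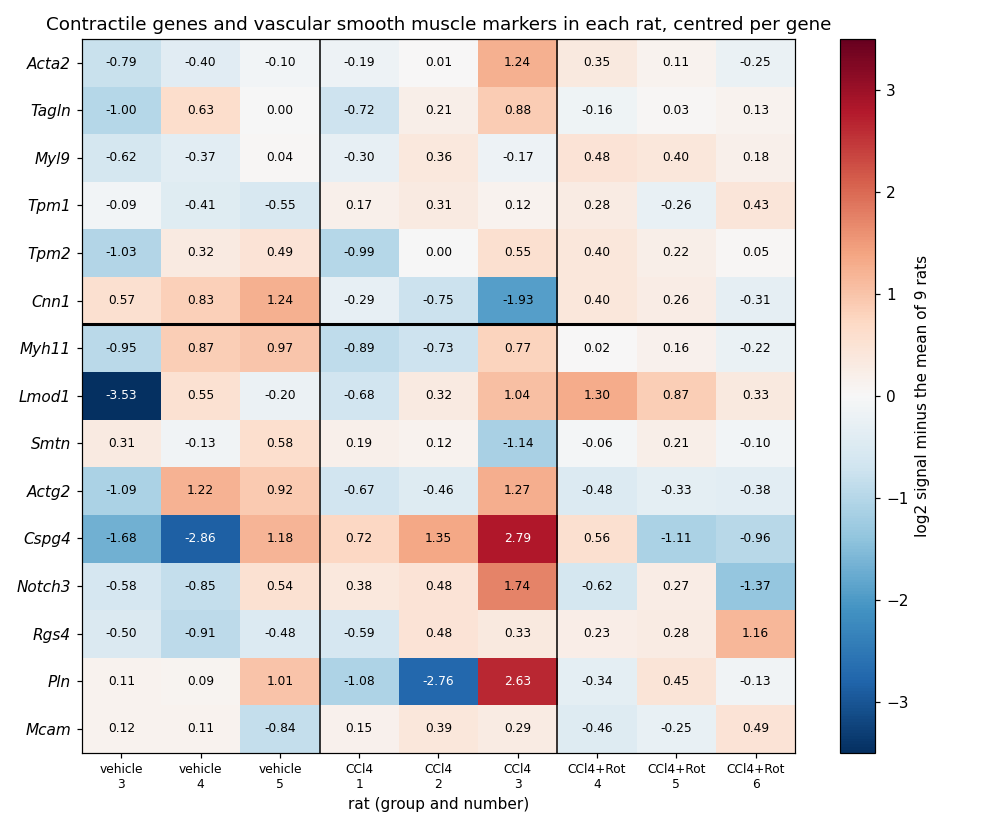
Rows are the 6 contractile genes (above the line) and the 9 vascular smooth muscle and pericyte markers of the fixed list, columns are the 9 rats, and each cell gives the log2 signal minus the gene's mean over 9 rats. The cells of *Tagln*, *Tpm2*, *Myh11*, *Lmod1* and *Actg2* are below 0 in vehicle 3 and CCl4 1, and those of *Actg2* also in CCl4 2 and every CCl4+Rot rat. The cells of *Cspg4*, *Notch3* and *Pln* are highest in CCl4 3, the array with the fewest present calls.

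By likeness over the 9 arrays among 8990 genes called present on at least 6, the genes closest to *Acta2* were *Pfkm* (root mean square difference of centred log2 signals 0.162), *Cdca4*, *Ccdc69*, *Ndnf* and *Smarcd1* (0.187). Among the other members the nearest to it was *Des*, at 0.309. For *Tagln* the closest were *Pde12* (0.211), *Itga5*, *Prss36*, *Kcnk15* and *Susd2* (0.296), and among the members *Tpm2*, at 0.318. No member was among the 5 closest to either gene.

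**Figure D4:**
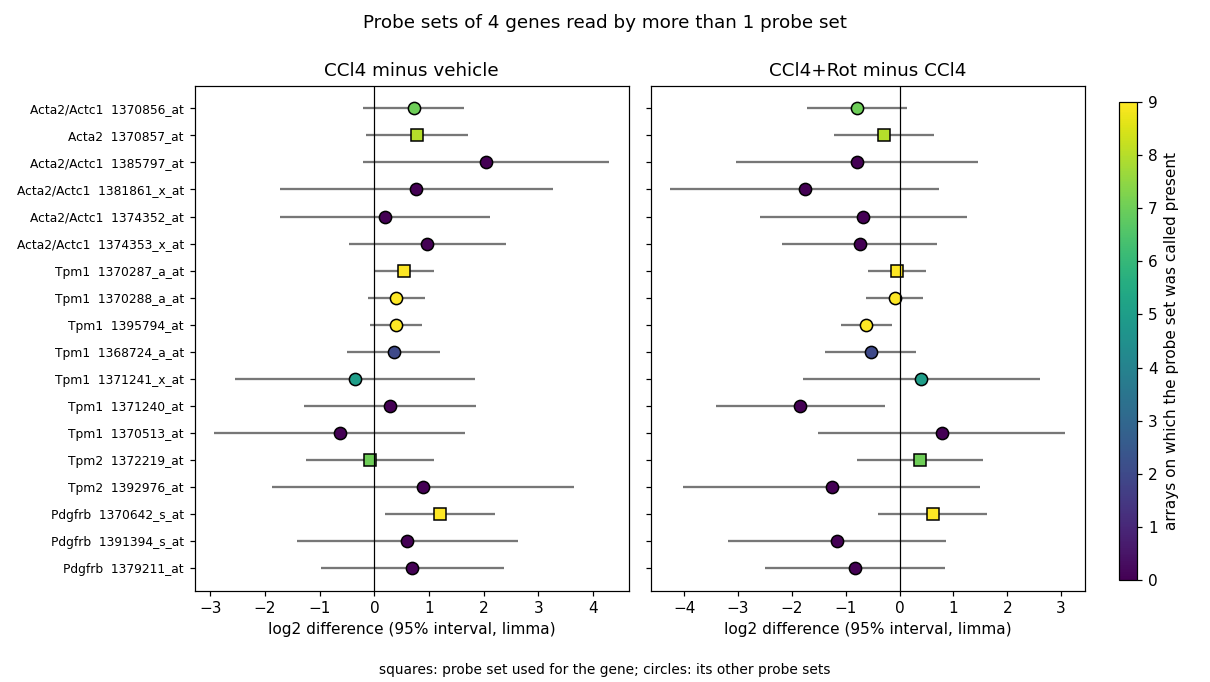
Each row is a probe set of *Acta2*, *Tpm1*, *Tpm2* or *Pdgfrb*, with its log2 difference (horizontal axis) and 95% interval from limma for CCl4 minus vehicle (left) and CCl4+Rot minus CCl4 (right). The colour gives the number of arrays with a present call out of 9, and squares are the probe sets used for the genes. The 3 *Tpm1* probe sets called present on all arrays lie at 0.39 to 0.55 on the left and at -0.62 to -0.05 on the right, and the widest intervals belong to probe sets called present on 5 or fewer arrays.

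Other genes of the contractile apparatus had more positive than negative mean differences from vehicle, 79.2% of them for CCl4 and 83.3% for CCl4+Rot, where 61.2% and 53.8% of all genes did. Of 24 measured partners (actins, myosins, tropomyosins, calponins and cytoskeletal linkers), 6 were higher without overlap in CCl4 than in vehicle rats and none lower, and 15 were higher in CCl4+Rot than in vehicle rats and none lower (25% and 62.5% higher, against 12.5% and 15.2% of all genes). None was called by limma, and at an unadjusted p below 0.05 there were 4 higher for CCl4 minus vehicle, 0 for CCl4+Rot minus CCl4 and 8 for CCl4+Rot minus vehicle, with 0 lower in each. The shares higher were 16.7%, 0% and 33.3%, against 9.49%, 2.1% and 7.46% of all genes. The median differences were 0.34 and 0.37, against 0.13 and 0.03 over all genes. *Myh10*, the heavy chain of non-muscle myosin IIB, was at 6.84 ± 0.56 (SD, n = 3) in vehicle rats, 8.73 ± 0.23 in CCl4 rats and 9.12 ± 0.23 in CCl4+Rot rats (adjusted p = 0.171 and 0.110 against vehicle in limma). *Csrp2*, a LIM-domain protein of smooth muscle and stellate cells, was at 8.20 ± 0.32, 9.92 ± 0.62 and 9.22 ± 0.22, and *Tpm4*, a non-muscle tropomyosin, at 10.18 ± 0.09, 11.08 ± 0.38 and 11.10 ± 0.13. For all 3 the groups given CCl4 lay above vehicle, whereas *Actg2* and *Myh11*, described above, overlapped between CCl4 and vehicle rats.

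For CCl4+Rot against CCl4, 2 of the 24 partners were higher without overlap and none lower (median 0.19 against -0.05 over all genes). The share higher was 8.33%, against 5.58% of all genes and 8.15% of genes called present on all 9 arrays. It was thus close to the background. The 2 partners were *Flna*, the actin cross-linker filamin A (0.38), and *Cnn3*, the non-muscle calponin (0.45). The difference of *Csrp2* was -0.70 (95% interval -1.47 to 0.08), with overlap.

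Among 17 genes of contraction signalling and smooth muscle transcription, 3 were higher and 1 lower without overlap for CCl4 minus vehicle, 2 higher and 1 lower for CCl4+Rot minus CCl4, and 6 higher and none lower for CCl4+Rot minus vehicle, with none called. The shares higher were 17.6%, 11.8% and 35.3%, against 12.5%, 5.58% and 15.2% of all genes, so that for CCl4 minus vehicle was close to the background. The shares lower were 5.88%, 5.88% and 0%, against 8.54%, 5.6% and 9.47%. In the same order, 3, 1 and 3 were higher and 0, 1 and 0 lower at an unadjusted p below 0.05 in limma (17.6%, 5.88% and 17.6% higher, against 9.49%, 2.1% and 7.46% of all genes). The shares lower at that p were 0%, 5.88% and 0%, against 4.01%, 3.4% and 2.33%. *Ednrb*, an endothelin receptor, was at 8.46 ± 0.29 (SD, n = 3) in vehicle rats, 10.11 ± 0.77 in CCl4 rats and 10.53 ± 0.30 in CCl4+Rot rats. *Ppp1r14a*, an inhibitor of myosin phosphatase, was at 8.17 ± 0.21, 8.91 ± 0.24 and 9.13 ± 0.17. In both genes all 6 rats given CCl4 were above vehicle (adjusted p = 0.192 for *Ednrb* and 0.220 for *Ppp1r14a* in CCl4+Rot minus vehicle, limma). *Gucy1a3*, a subunit of the nitric oxide receptor that relaxes smooth muscle, did not overlap between CCl4+Rot and CCl4: it was at 9.34, 9.98 and 9.69 in CCl4 rats and at 10.39, 10.36 and 10.47 in CCl4+Rot rats (0.74, 95% interval 0.26 to 1.21, unadjusted p = 0.00751 and adjusted p = 0.650 in limma). *Srf*, serum response factor, had mean signals of 9.33, 9.41 and 9.36 in vehicle, CCl4 and CCl4+Rot rats, and is named for the CArG box above, outside the rule for names.

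The genes around *Pdgfrb* had positive differences in each comparison with all arrays, but for CCl4+Rot minus CCl4 that of *Pdgfc* was 0.0042, and without CCl4 replicate 3 there were 3 positive and 1 negative. Of the 4 measured, *Pdgfra* and 3 ligands, 2 were higher without overlap in CCl4 and 3 in CCl4+Rot than in vehicle rats, and none was called. The shares were 50% and 75%, against 12.5% and 15.2% of all genes. *Pdgfd*, a ligand and 1 of the 3, was called present on no array. At an unadjusted p below 0.05 in limma, 2 and 3 were higher in these comparisons and 0 for CCl4+Rot minus CCl4 (9.49%, 7.46% and 2.1% of all genes). *Pdgfra*, the sister receptor, was at 9.63 ± 0.17 (SD, n = 3) in vehicle rats, 10.34 ± 0.46 in CCl4 rats and 10.80 ± 0.36 in CCl4+Rot rats, with CCl4+Rot minus vehicle at 1.17 (95% interval 0.50 to 1.84, adjusted p = 0.297 in limma). *Pdgfa*, a ligand, was at 7.09 ± 0.11, 7.62 ± 0.34 and 7.68 ± 0.25.

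The vitamin A genes around *Lrat* did not share one direction. For CCl4 minus vehicle, 5 of 11 were higher and 1 lower without overlap (45.5% and 9.09%, against 12.5% and 8.54% of all genes). For CCl4+Rot minus vehicle 2 were higher and 1 lower (18.2% and 9.09%, against 15.2% and 9.47%), which is close to the background. None was called. At an unadjusted p below 0.05 in limma there were 3 higher and 1 lower, and 2 higher and 0 lower. Over all genes these shares were 9.49% and 4.01%, and 7.46% and 2.33%. *Cyp26a1*, which degrades retinoic acid, was at 7.83, 7.14 and 7.11 in vehicle, 9.43, 8.55 and 8.55 in CCl4 and 8.32, 8.19 and 9.31 in CCl4+Rot rats. *Aldh1a1*, which makes retinoic acid, was at 10.63, 10.72 and 10.74, then 11.65, 12.85 and 11.80, then 12.22, 11.52 and 12.80 in the same order. Both were above vehicle in all 6 rats given CCl4 (1.48 and 1.40 for CCl4 minus vehicle, adjusted p = 0.252 and 0.275 in limma). The retinol dehydrogenase *Rdh10* was below vehicle in all 3 CCl4 rats (-0.46). No vitamin A gene separated CCl4+Rot from CCl4, where 5.58% of all genes were higher and 5.6% lower.

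Other stellate cell markers lay in both directions. Of 14, 2 were higher and 5 lower without overlap in CCl4 than in vehicle rats (14.3% and 35.7%, against 12.5% and 8.54% of all genes). The share higher was thus close to the background. For CCl4+Rot against CCl4 there were 0 and 0 (5.58% and 5.6% of all genes). For CCl4+Rot against vehicle there were 3 higher and 4 lower (21.4% and 28.6%, against 15.2% and 9.47%), and none was called. At an unadjusted p below 0.05 in limma there were 2 higher and 4 lower, 0 and 0, and 2 higher and 3 lower. Over all genes these shares were 9.49% and 4.01%, 2.1% and 3.4%, and 7.46% and 2.33%. The higher ones were *Cygb*, the stellate cell globin (8.13 ± 0.26 in vehicle rats, 9.00 ± 0.54 in CCl4 rats and 9.46 ± 0.24 in CCl4+Rot rats, SD, n = 3), and *Rgs5*, a pericyte regulator of G protein signalling (1.18 for CCl4 minus vehicle). Among the lower ones were *Ecm1*, a secreted matrix protein (11.43 ± 0.06, 10.30 ± 0.70 and 10.03 ± 0.21), *Angptl6* (-0.83 for CCl4 minus vehicle), *Vipr1* (-0.69) and *Colec11* (-0.45). The lowest adjusted p of these in limma was 0.251, for *Cygb* in CCl4+Rot minus vehicle. *Ngfr* and *Hand2* were called present on no array, and *Gfap*, the classical marker of quiescent rodent stellate cells, on 3.

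**Figure D5:**
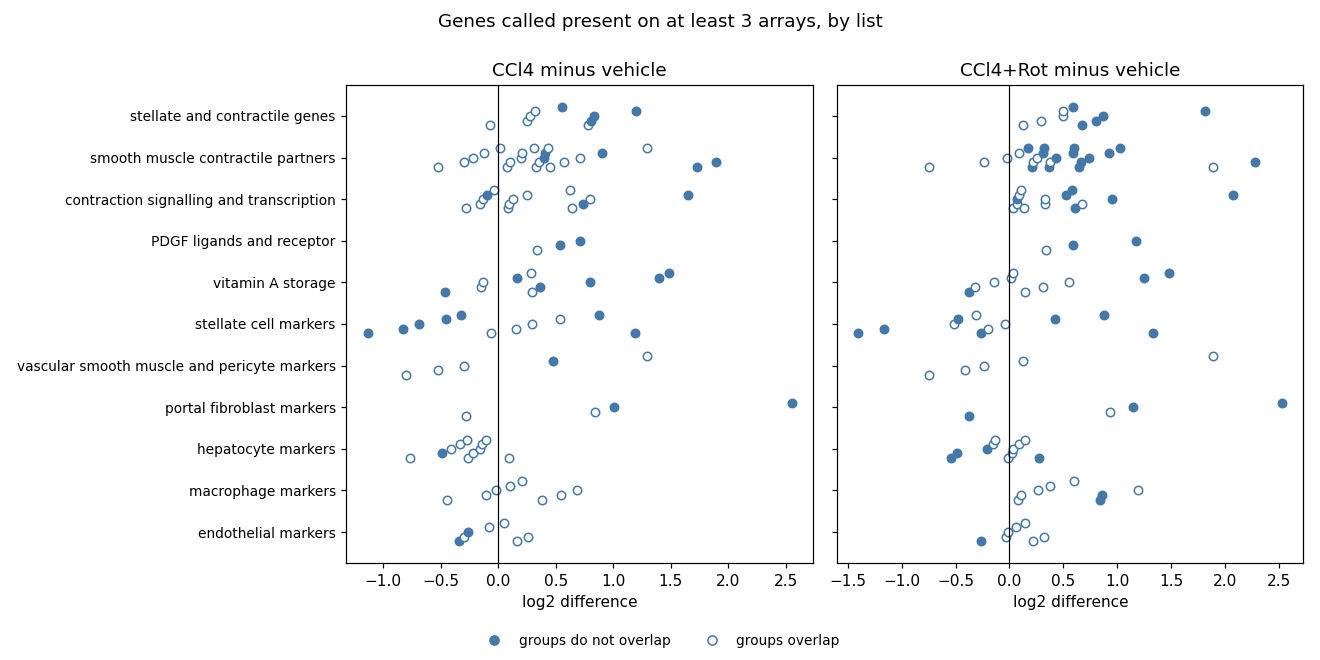
Each point is a gene called present on at least 3 arrays, placed by its log2 difference for CCl4 minus vehicle (left) and CCl4+Rot minus vehicle (right) in the row of its list, and filled where the groups of 3 rats did not overlap. Both panels share the vehicle rats, and some genes stand in more than 1 list. In the right panel, points of the contractile and PDGF rows lie mainly to the right of 0, those of the stellate cell markers on both sides, and those of the hepatocyte markers around 0.

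Markers of other cells that express these genes were measured alongside. Over all genes, 12.5% were higher and 8.54% lower without overlap in CCl4 than in vehicle rats. The shares were 5.58% and 5.6% for CCl4+Rot against CCl4, and 15.2% and 9.47% for CCl4+Rot against vehicle. Of 9 vascular smooth muscle and pericyte markers, 1 was higher without overlap in CCl4 than in vehicle rats (*Mcam*, 0.48). That share, 11.1%, was close to the background. In CCl4+Rot rats 2 were lower without overlap than in CCl4 rats (*Cspg4*, -2.13, and *Notch3*, -1.44), a share of 22.2%. Of the 9 markers, 5 were called present on at least 3 arrays, and *Cspg4* on none. The log2 of their summed signal was 9.63 to 10.47 in vehicle, 9.77 to 10.83 in CCl4 and 9.91 to 10.09 in CCl4+Rot rats. Portal fibroblasts are another source of myofibroblasts, and 4 of 7 markers were higher without overlap in CCl4 than in vehicle rats. They were *Eln*, elastin (4.46 ± 0.94 in vehicle, where it was called present in no rat, and 7.01 ± 0.62 in CCl4, SD, n = 3), *Entpd2* (6.12 ± 0.16 and 7.12 ± 0.45), and *Thy1* and *Gas1*, which were absent on all arrays, as was *Gli1*. For CCl4+Rot minus CCl4, *Thy1* (-2.82) and *Gas1* (-2.09) were lower without overlap and no marker higher, while *Eln* (-0.02) and *Entpd2* (0.14) overlapped. Against vehicle, CCl4+Rot rats were higher without overlap in *Eln* (2.53) and *Entpd2* (1.15) and lower in *Dpt* (-0.38). Of 5 mesothelial markers 1 was higher and 1 lower without overlap in CCl4 than in vehicle rats (20% each). The log2 of the summed signal of the 10 genes themselves was 12.44 to 12.58 in vehicle, 12.78 to 13.30 in CCl4 and 13.07 to 13.29 in CCl4+Rot rats.

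Hepatocyte markers were lower on average for 10 of 11 in CCl4 minus vehicle (median -0.26) and higher for 11 of 11 in CCl4+Rot minus CCl4 (median 0.18). Without CCl4 replicate 3, 4 were higher and 7 lower (median -0.05), then 5 higher and 6 lower (median -0.01). Macrophage markers were higher for 9 of 9 in CCl4+Rot minus CCl4 (median 0.29, and 0.32 without that array). Of the 9, 2 did not overlap (22.2%, against 5.58% of all genes). Of 8 endothelial markers 7 were higher on average in CCl4+Rot than in CCl4 rats (median 0.20), and 6 without CCl4 replicate 3 (median 0.05). With all arrays, 43.8% of all genes were higher on average in that comparison. Of 7 cholangiocyte markers, 3 were higher without overlap and 1 lower in CCl4 than in vehicle rats, and 4 were absent on all arrays. The shares were 42.9% and 14.3%, against 12.5% and 8.54% of all genes. Of 6 lymphocyte markers none separated CCl4 from vehicle. No gene of these lists was called by limma, and the part of these lists in the values of the 10 genes was not tested. At most 4 genes of any list in this paragraph had an unadjusted p below 0.05 in limma in any comparison. These were macrophage markers higher in CCl4+Rot than in vehicle rats (44.4%, against 7.46% of all genes).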

How the data were processed

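Whole-liver RNA of 9 rats was read on Affymetrix rat genome arrays with a 3′ labelling kit. For each array the authors deposited log2 signals of 31099 probe sets and, as letters in other columns, whether each was detected (present, marginal or absent). The submitters' processing notes name MAS5 and affy, with no versions, and the genome build is not given in the sources used here. The antilogs have a 2% trimmed mean of 500 on each array, a scaling that ties each value to the rest of its array. The 57 control probe sets were left out, and 31042 were fitted in limma 3.58.1 (R 4.3.3), without covariates, as means of the 3 groups. Benjamini-Hochberg adjustment ran over all of them. Intervals are at 95%. The probe sets naming 1 gene alone, of highest mean signal, represent genes.

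The members and gene lists were chosen with earlier results of these data known. Beside the members, the rule names up to 5 genes per list and comparison with the smallest p. It takes only genes called present on at least 3 arrays, and exceptions are marked or listed here. *Cspg4*, *Notch3*, *Thy1*, *Gas1*, *Gli1*, *Pdgfd*, *Ngfr* and *Hand2* were named though called present on fewer than 3. Signals of a group not called present were set no lower than the dimmest present probe set of that array. For *Cnn1* this could change no group mean, as this floor was 2.31 to 3.64 in the CCl4 groups and its lowest signal 4.09. Its own probe set was called absent at up to 6.60, so its folds are those of the measured means and stay limited by detection. Rats are numbered as labelled. The fit was tested on simulated data. Alternatives included quantile normalization, centring on medians, filters on signal and detection, robust estimation (statmod 1.5.0), array weights, the methods' t-test, other probe set rules, the animal number as a block, and each array left out in turn.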

Additional observations from a re-analysis of the deposited data

How the results depend on the processing

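No member was called in the quantile, median-centred, filtered, weighted, blocked, group-only, other-probe-set or leave-one-out fits. With a robust spread that follows the signal, 1 member was called for CCl4 minus vehicle (*Vim*) and 2 for CCl4+Rot minus vehicle (*Vim*, *Pdgfrb*), among 348 and 241 probe sets in all (1 for CCl4+Rot minus CCl4). The methods' t-test with no adjustment and the 1.5-fold threshold called 3 (*Cnn1*, *Des*, *Vim*) and 5 (*Myl9*, *Des*, *Vim*, *Pdgfrb*, *Lrat*) among 1774 and 2126 probe sets (851 for CCl4+Rot minus CCl4), and after Benjamini-Hochberg 0, 0 and 0, where the fit used here called 0, 1 and 8 in the 3 comparisons (CCl4 minus vehicle, CCl4+Rot minus CCl4, CCl4+Rot minus vehicle). With probe sets present on at least 3 arrays the counts were 78, 0 and 63, without the lowest 30% they were 4, 0 and 22, with array weights 0, 1 and 73, with quantile normalization 0, 0 and 3, with all-probe-set centring 0, 1 and 2, and with only the groups compared 0, 0 and 1. *Cnn1* has no value under the detection filter. With probe sets averaged per gene, 3, 0 and 3 of 14378 genes were called.

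Centring on the median of all probe sets gave 3 members without overlap for CCl4 minus vehicle (*Acta2*, *Des* and *Cnn1*, median 0.077), with *Vim*, *Tpm1* and *Pdgfrb* lost. For CCl4+Rot minus CCl4 it gave 1 (*Tpm2*, median 0.42). There the brightest of all probe sets naming a gene also gave 1 (*Acta2*, by the probe set shared with *Actc1*). With 1 array left out, members without overlap ranged over 5 to 7, 0 to 3 and 6 to 7. The median difference ranged over 0.34 to 0.63, -0.04 to 0.31 and 0.51 to 0.66. Smaller groups separate more easily. Without CCl4 replicate 3, 17.9% of all genes were higher and 15.1% lower without overlap for CCl4 minus vehicle, against 12.5% and 8.54% with all arrays. For CCl4+Rot minus CCl4 these shares were 12.3% and 10.4%, against 5.58% and 5.6%. Such shares are not given here for centring or for the other arrays left out. Signs turned under centring for *Tagln* (-0.11 for CCl4 minus vehicle and 0.13 for CCl4+Rot minus CCl4), *Myl9* (-0.081) and *Lrat* (-0.039) for CCl4 minus vehicle, and *Tpm1* (0.20) and *Des* (0.22) for CCl4+Rot minus CCl4. They also turned for CCl4+Rot minus CCl4 with array weights for *Acta2* (0.045), *Vim* (-0.076) and *Lrat* (-0.034), with quantile normalization for *Des* (0.049), and with the mean of probe sets for *Pdgfrb* (-0.46) and *Tpm2* (-0.45). The mean of probe sets turned *Tpm2* for CCl4 minus vehicle (0.41) and CCl4+Rot minus vehicle (-0.041) and *Tpm1* for the latter (-0.14). The brightest probe set, shared with *Actc1*, turned *Acta2* for CCl4+Rot minus vehicle (-0.077). With 1 array left out, differences that turned spanned, for CCl4+Rot minus CCl4, -0.56 to 0.16 (*Acta2*), -0.54 to 0.26 (*Tagln*), -0.19 to 0.15 (*Tpm1*), -0.051 to 0.72 (*Tpm2*), -0.27 to 0.14 (*Des*), -0.020 to 0.18 (*Vim*) and -0.0055 to 0.56 (*Lrat*). For CCl4 minus vehicle they spanned -0.19 to 0.67 (*Tagln*) and -0.55 to 0.35 (*Tpm2*), and for CCl4+Rot minus vehicle -0.31 to 0.50 (*Tagln*) and -0.18 to 0.58 (*Tpm2*). The cause was not tested. Vehicle and the other groups share the animal numbers 3, 4 and 5. Deviations of same-numbered rats correlated at -0.09, -0.0047 and -0.01 over all probe sets. Over those called present on all 9 arrays they correlated at 0.020, 0.035 and 0.068. Whether same-numbered rats shared a batch or handling was not tested. With the replicate block (correlation -0.03), 0, 0 and 0 members and 0, 1 and 8 probe sets were called, with median differences of 0.44, 0.16 and 0.54. Of 888 alternative values computed, 829 were scored as the same as in the fit used here, a score that allows small changes. A further 34 turned sign, 14 moved and 11 passed the threshold where the fit used here did not. Many of the 829 could not turn sign. Filters, fold thresholds, t-tests, the robust fit and the fit of only the groups compared reuse the same differences between means. So does leaving out an array of a group not compared. The tally therefore does not measure how stable the differences are. The number of arrays, and for *Cnn1* and *Tpm2* the signal over background, limit the values.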
